A study of Mus musculus with 8 samples.

Results

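The 10 genes described here were the glycolysis enzymes Hk1, Hk2, Pfkp, Aldoa, Gapdh, Pgk1, Eno1, Pkm and Ldha together with Eno1b, a near-identical copy of the Eno1 coding sequence. They were chosen by symbol from the 36333 genes of a table of expression in mouse ventral prostate, and all 10 were found in it. The tissue came from 12-month-old males, 4 of the wild type (WT) and 4 carrying a knock-in of human SKP2 (hSKP2-KI), with 1 poly-A selected library per mouse. The study bred heterozygous knock-in females to FVB/N wild-type males, and did not give the background of the females. In the hSKP2-KI mice a P2A-human SKP2 coding sequence had been placed by CRISPR/Cas9 in exon 1 of the endogenous mouse probasin gene (Pbsn), so that the probasin promoter, active in prostate epithelium, drove SKP2, which is the substrate-binding subunit of a ubiquitin ligase. The study made several founder lines, and the line that gave these mice was not stated. Values were in TPM, for which the reads of a gene are divided by transcript length and every library is scaled to the same sum of 1000000. The study stated a nominal number of reads, but the depth of each library was unknown.

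Glycolysis splits glucose into pyruvate in a chain of cytosolic steps and yields ATP without oxygen. Hexokinases trap glucose in the cell, phosphofructokinase sets the pace of the committed step, aldolase splits the sugar, and the later enzymes from glyceraldehyde phosphate dehydrogenase to pyruvate kinase recover ATP, after which lactate dehydrogenase can turn pyruvate into lactate. Many of these genes are targets of the hypoxia-inducible factors and of Myc. The prostate is known for secreting citrate rather than burning it fully, and for a shift of glucose metabolism in cancer.

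The libraries matched their genotype labels by Skp2 and Pbsn. The Skp2 value is listed for the mouse gene on chromosome 15. Reads were mapped to the mouse genome, and whether reads of the human SKP2 insert were counted there was not stated. Skp2 TPM was between 37.3 and 60.6 in hSKP2-KI and between 1.05 and 2.27 in WT, and Pbsn TPM was between 93.0 and 174 against 3980 to 9232. The secretory genes Sbp, Sbpl and Spink1 together took 32.1% to 34.3% of all TPM in hSKP2-KI and 40.4% to 45.8% in WT. The fitted log2 difference, hSKP2-KI minus WT, had a median of 0.23 over the 13080 genes tested, so the typical gene lay above its WT level on this scale. Each member is therefore given on 2 scales, TPM as deposited and TPM after median-ratio scaling, which brings the median over all genes to -0.01. A gene entered the test where at least 4 of the 8 libraries reached 1 TPM, and the test was limma on log2(TPM + 1) with Benjamini-Hochberg adjustment over all genes tested. All 10 members entered it, Eno1b only because the hSKP2-KI mice reached 1 TPM. ATP6, COX1, CYTB, ND1 and ND4, mitochondrial genes that every cell uses, were listed at 0 in all 8 libraries, so a listed 0 does not show that a transcript was absent.

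On TPM as deposited, 6 of the 10 members rose (Hk1, Pfkp, Aldoa, Pgk1, Eno1b and Ldha), 1 fell (Eno1), and Hk2, Gapdh and Pkm did not pass an adjusted p of 0.05. Over all genes tested, 32.7% were called higher and 1.23% lower in this comparison. The members had a median log2 difference of 0.29 beside 0.23 for all genes. After median-ratio scaling 2 members, Pfkp and Eno1b, remained higher and Eno1 remained lower, against 6.92% and 4.25% of all genes called in these directions. The 4 hSKP2-KI mice lay above all 4 WT mice for 5 members and below them for 1, where 34.0% of all genes tested were without overlap in the first direction and 1.03% in the second. The rises of Hk1, Aldoa, Pgk1 and Ldha were thus called on one scale and not on the other, while those of Pfkp and Eno1b and the fall of Eno1 were called on both. The values of Eno1 and Eno1b taken alone are uncertain, since their coding sequences are near-identical. Eno1b also entered the test only through the genotype where it was high, so its call and lack of overlap are no independent evidence. Without these enolases, 5 of the other 8 members were called higher and 0 lower on TPM as deposited. After median-ratio scaling 1 of the 8, Pfkp, was higher and 0 were lower.

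**Figure D1:**
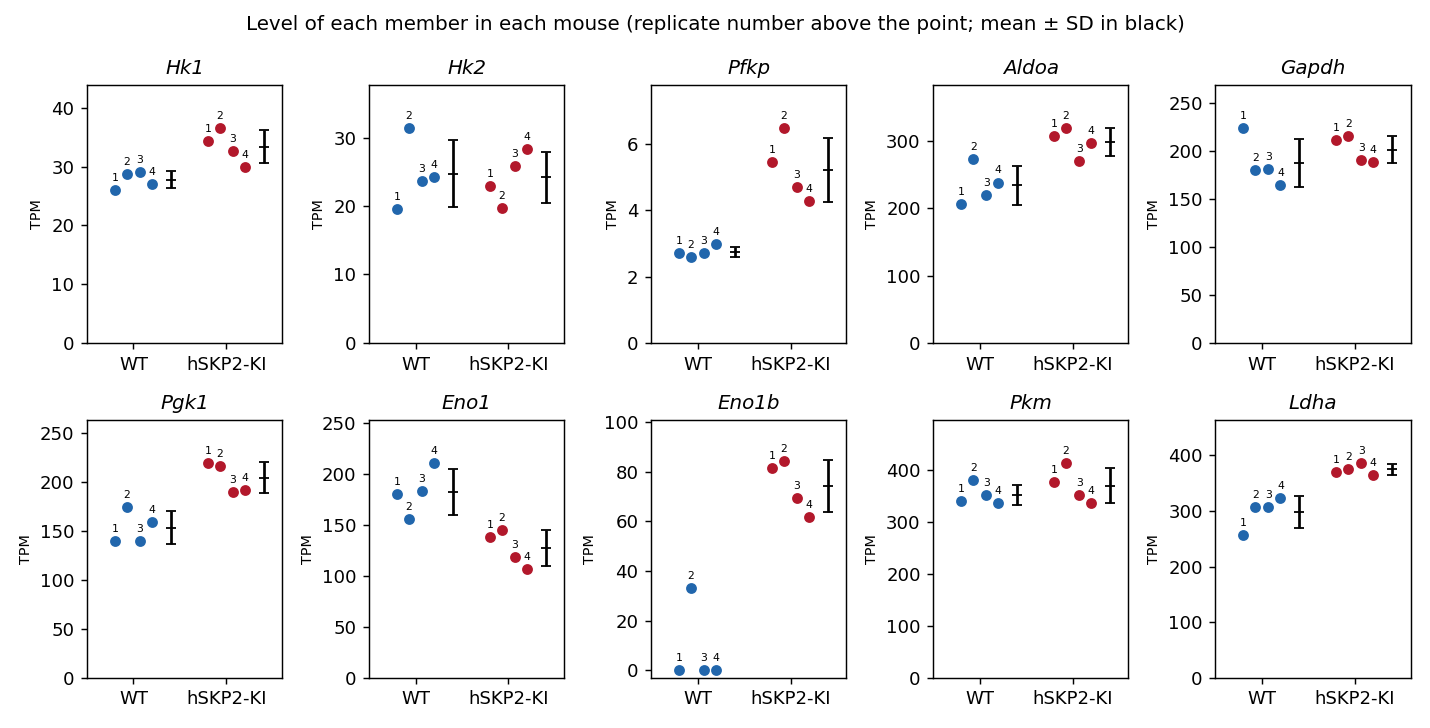
TPM of the 10 members (y axis, from 0) in the 4 WT (blue) and 4 hSKP2-KI (red) mice, with the replicate number above each point and mean ± SD in black, left out for Eno1b in WT. The Pfkp, Pgk1, Ldha, Hk1 and Eno1b points of hSKP2-KI all lie above those of WT, the Eno1 points all lie below, and Hk2, Aldoa, Gapdh and Pkm overlap.

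The promoters of 4 genes are printed because these genes show the 3 patterns met here. Pgk1 and Ldha rose with the general shift, Pfkp rose beyond it, and Eno1, taken apart from its near-identical copy Eno1b, fell. Each is the 250 bases before the outermost start listed for the gene in a table of RefSeq promoters on GRCm38.p6, which for Ldha and Pfkp lies inside the span of the gene record, written 5′ to 3′ along the gene. Capitals mark ACGTG, the core of the element bound by hypoxia-inducible factors and part of the E-box bound by Myc, or CACGT, the same letters read from the other strand. Where both overlap they form CACGTG.
Pgk1, chrX:106186850-106187099, plus strand: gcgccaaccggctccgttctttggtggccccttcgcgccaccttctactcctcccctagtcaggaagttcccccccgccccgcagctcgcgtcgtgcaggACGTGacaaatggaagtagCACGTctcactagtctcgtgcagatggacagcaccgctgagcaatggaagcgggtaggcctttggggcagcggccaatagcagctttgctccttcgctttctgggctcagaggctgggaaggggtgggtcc
Ldha, chr7:46845554-46845803, plus strand: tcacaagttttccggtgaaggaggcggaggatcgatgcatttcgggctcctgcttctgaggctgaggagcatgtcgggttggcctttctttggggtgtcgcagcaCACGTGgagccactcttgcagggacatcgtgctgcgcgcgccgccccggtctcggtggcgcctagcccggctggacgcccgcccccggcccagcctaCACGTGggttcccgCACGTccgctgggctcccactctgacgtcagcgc
Pfkp, chr13:6648772-6649021, minus strand: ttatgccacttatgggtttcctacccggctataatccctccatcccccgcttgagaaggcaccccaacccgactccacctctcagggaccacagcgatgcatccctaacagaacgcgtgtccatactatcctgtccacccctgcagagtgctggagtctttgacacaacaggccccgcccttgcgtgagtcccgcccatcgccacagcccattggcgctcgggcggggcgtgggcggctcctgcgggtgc
Eno1, chr4:150236458-150236707, plus strand: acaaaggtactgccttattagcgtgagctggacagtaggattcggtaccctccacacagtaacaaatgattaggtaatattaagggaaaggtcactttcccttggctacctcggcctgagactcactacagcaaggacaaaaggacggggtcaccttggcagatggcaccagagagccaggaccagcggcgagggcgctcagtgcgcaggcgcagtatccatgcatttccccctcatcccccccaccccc

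The Ldha window held 5 matches over both strands, with 2 forward and 3 reverse, and both forward matches overlapped a reverse match within CACGTG. The Pgk1 window held 1 forward and 1 reverse match, apart from each other. The windows of Pfkp and Eno1 held none. Over all starts annotated for each gene, 5 of the 9 members with a promoter in the table had a match (Hk2, Aldoa, Pgk1, Pkm and Ldha), and Hk1, Pfkp, Gapdh and Eno1 had none. Of all 27025 genes in the same promoter table, 18.5% had a match in such a window. A gene with more listed starts had more windows to match, which was not adjusted for, and 16.6% of all 32851 windows held a match. Whether these letters bear on the differences between the genotypes was not tested.

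Levels are compared between genes in TPM, which is per length. In WT the order of the mean TPM was Pkm (353), Ldha (299), Aldoa (234), Gapdh (188), Eno1 (182), Pgk1 (154), Hk1 (27.8), Hk2 (24.7) and Pfkp (2.74), with Eno1b left out because it was at or near 0 in 3 of the 4 mice. Pkm stood above Ldha in every WT mouse, whereas Ldha and Aldoa, Aldoa and Gapdh, Gapdh and Eno1, Eno1 and Pgk1, and Hk1 and Hk2 had ranges over the mice that overlapped. In hSKP2-KI the order was Ldha (375), Pkm (370), Aldoa (298), Pgk1 (205), Gapdh (202), Eno1 (127), Eno1b (74.2), Hk1 (33.4), Hk2 (24.2) and Pfkp (5.23). There the ranges overlapped only for the neighbours Ldha and Pkm, and Pgk1 and Gapdh.

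Hexokinases carry out the first step, with Hk1 the form found in most tissues and Hk2 the inducible form of muscle, fat and many tumours. Hk1 TPM was 34.4, 36.6, 32.7 and 30.0 in hSKP2-KI mice 1 to 4 and 26.1, 28.8, 29.1 and 27.1 in WT mice 1 to 4. All hSKP2-KI values lay above all WT values, by less than 1 TPM at the nearest pair. The log2 difference was 0.26 ± 0.08 (SE, n = 4 per genotype, limma adjusted p = 0.0365), and it was -0.00 after median-ratio scaling (limma adjusted p = 0.982). Hk2 TPM was 22.9, 19.7, 25.8 and 28.3 in hSKP2-KI and 19.6, 31.4, 23.6 and 24.2 in WT. The genotypes overlapped throughout, and both the highest and the lowest Hk2 value belonged to WT mice. The log2 difference of Hk2 was -0.02 ± 0.14 (SE, limma adjusted p = 0.899), with a 95% interval from -0.34 to 0.29. Leaving out any of 6 of the 8 mice, all but hSKP2-KI mouse 4 and WT mouse 2, cost Hk1 its call, with limma adjusted p values from 0.0542 to 0.0987.

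Pfkp, the platelet form of phosphofructokinase, catalyses the committed step, and it had the lowest mean TPM of the members in hSKP2-KI. Its TPM was 5.44, 6.48, 4.70 and 4.28 in hSKP2-KI and 2.70, 2.59, 2.71 and 2.97 in WT. The WT mice were close together, and the lowest hSKP2-KI mouse still lay above the highest WT mouse. The log2 difference was 0.72 ± 0.13 (SE, n = 4 per genotype, limma adjusted p = 0.00355) on TPM as deposited and 0.51 ± 0.12 (SE, limma adjusted p = 0.0275) after median-ratio scaling. Under quantile normalization, which forces all libraries to 1 distribution, it was 0.39 with a limma adjusted p of 0.0886. The study had picked Pfkp from these same libraries as an interferon gamma pathway gene, so its rise here is no independent evidence of direction. Its other evidence was quantitative PCR, which the study reported as higher for Pfkp in hSKP2-KI prostates. It also reported higher PFKP by PCR in human PC3 prostate cancer cells that overexpress SKP2.

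Within each library the share of an isozyme in its step does not depend on scaling. Pfkp made up 7.80%, 8.20%, 6.93% and 6.67% of the summed Pfkl, Pfkm and Pfkp TPM in hSKP2-KI and 5.12%, 4.02%, 4.89% and 4.98% in WT. The mean share was 7.40% ± 0.72 (SD, n = 4) against 4.75% ± 0.50, without overlap. The two-sided exact permutation test gave p = 0.0286, the smallest possible with 4 against 4, and 0.0667 after adjustment over the 7 shares computed. For any share to fall under 0.05 after adjustment, 5 of the 7 would have had to reach that smallest p, and 3 did. Hk2 made up 41.9% ± 5.8 of Hk1 and Hk2 in hSKP2-KI and 46.8% ± 4.0 in WT, with overlap (exact permutation p = 0.257).

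Aldoa, the aldolase of muscle and most adult tissues, made up 96.3% to 98.0% of the aldolase TPM in every library. Aldoa TPM was 307, 319, 270 and 296 in hSKP2-KI and 206, 273, 219 and 238 in WT. WT mouse 2 lay above hSKP2-KI mouse 3, and apart from that pair the genotypes were separate. Aldoa had a log2 difference of 0.36 ± 0.10 (SE, limma adjusted p = 0.0187), and 0.09 (limma adjusted p = 0.512) after median-ratio scaling. Without WT mouse 1 or without hSKP2-KI mouse 2 the call was lost on TPM as deposited, with a limma adjusted p of 0.0518 and 0.05.

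Gapdh, which oxidises glyceraldehyde phosphate and was the study's reference gene in PCR, did not pass the test on either scale. Its TPM was 211, 216, 191 and 188 in hSKP2-KI and 224, 180, 181 and 165 in WT. WT mouse 1 had the highest value of all 8, and the other 3 WT mice lay below every hSKP2-KI mouse. The log2 difference was 0.11 with a 95% interval from -0.11 to 0.33 (limma adjusted p = 0.371), and it turned to -0.16 after median-ratio scaling (limma adjusted p = 0.483).

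Pgk1, the X-linked kinase that makes the first ATP of the chain, had TPM of 220, 217, 190 and 192 in hSKP2-KI and 140, 175, 140 and 159 in WT. All hSKP2-KI mice lay above all WT mice, and the closest WT mouse was again mouse 2. Pgk1 had a log2 difference of 0.41 ± 0.09 (SE, limma adjusted p = 0.00901), and 0.15 (limma adjusted p = 0.276) after median-ratio scaling.

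Pkm, pyruvate kinase of muscle and proliferating tissue, did not pass the test and was as high in WT as in hSKP2-KI. Its TPM was 377, 415, 353 and 337 in hSKP2-KI and 341, 381, 353 and 337 in WT. The genotypes overlapped, with hSKP2-KI mouse 2 alone clearly above the highest WT mouse. The log2 difference was 0.07 with a 95% interval from -0.12 to 0.25 (limma adjusted p = 0.524), and -0.20 (limma adjusted p = 0.166) after median-ratio scaling. The table gives 1 value per gene, so the M1 and M2 splice forms were not separated.

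Ldha, the subunit that favours lactate formation, had TPM of 371, 376, 387 and 365 in hSKP2-KI and 257, 307, 307 and 324 in WT. The hSKP2-KI mice were tightly grouped and all lay above WT. Ldha had a log2 difference of 0.33 ± 0.08 (SE, limma adjusted p = 0.0135), and 0.06 (limma adjusted p = 0.628) after median-ratio scaling. Its partner subunit Ldhb, typical of heart and of tissues that burn lactate, rose more, with TPM of 40.6, 44.5, 27.2 and 41.1 in hSKP2-KI and 13.7, 18.0, 14.9 and 22.4 in WT. The log2 difference of Ldhb was 1.11 ± 0.17 (SE, limma adjusted p = 0.0022), and 0.85 (limma adjusted p = 0.0117) after median-ratio scaling. Ldha accordingly made up 90.7% ± 1.8 (SD, n = 4) of Ldha and Ldhb TPM in hSKP2-KI and 94.6% ± 0.8 in WT, without overlap (exact permutation p = 0.0286, 0.0667 over the 7 shares).

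**Figure D2:**
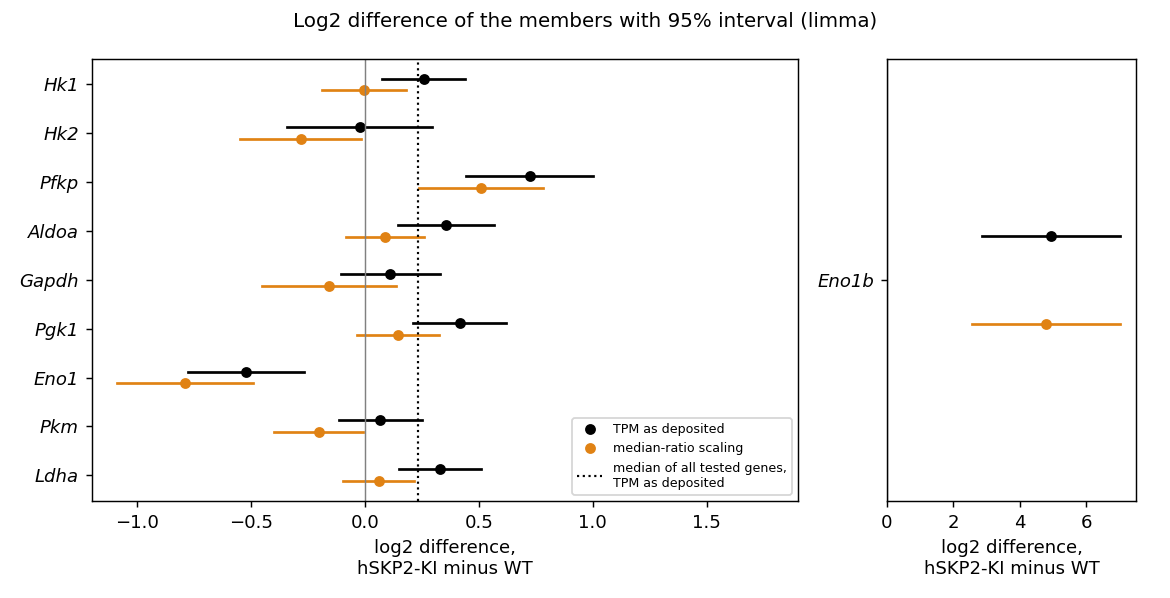
Log2 difference of each member, hSKP2-KI minus WT, with its 95% interval from limma (x axis, log2 units; n = 4 per genotype), on TPM as deposited (black) and after median-ratio scaling (orange), with the median of all tested genes dotted and Eno1b on an axis of its own. The intervals of Hk1, Aldoa, Pgk1 and Ldha exclude 0 for TPM as deposited and include it after scaling, those of Pfkp, Eno1 and Eno1b exclude 0 on both, and the unadjusted intervals of Hk2 and Pkm lie just below 0 after scaling without passing the adjusted test.

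Enolase, which turns phosphoglycerate into phosphoenolpyruvate, was the step where the members moved in opposite directions. Eno1 (Entrez 13806, chromosome 4) encodes the form found in most tissues, and Eno1b (Entrez 433182, chr18:48045335-48048379 in RefSeq on GRCm38.p6) is a copy of it. In the GENCODE M21 annotation the Eno1b coding sequence lies in 1 exon, whereas that of the full Eno1 transcript is spread over 11 exons. Both coding sequences are 1305 bases long and differ at 8 bases, an identity of 99.39%, with an identical run of 725 bases. Of the 1156 windows of 150 bases, the read length of this study, 58.4% are the same in both genes. How the software shared reads that fit both was not stated, so the value of either gene alone is uncertain and their sum is given as well.

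Eno1 TPM was 138, 145, 118 and 107 in hSKP2-KI and 180, 156, 183 and 211 in WT. Every hSKP2-KI mouse lay below every WT mouse, and WT mouse 2 was the lowest of its group. Eno1 had a log2 difference of -0.52 ± 0.12 (SE, n = 4 per genotype, limma adjusted p = 0.00856), and -0.79 (limma adjusted p = 0.00827) after median-ratio scaling. Eno1 was the only member that fell, on either scale.

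Eno1b was listed at 81.6, 84.1, 69.3 and 61.7 TPM in hSKP2-KI, and at 0, 33.0, 0 and 0.0491 TPM in WT. All 4 hSKP2-KI mice were above all WT mice, but WT mouse 2 stood apart from the other 3, which were at or near 0. The limma log2 difference on log2(TPM + 1) was 4.93 ± 0.94 (SE, adjusted p = 0.00479). After median-ratio scaling limma gave 4.79 (adjusted p = 0.0172). Its size depended on the added constant, since it was 7.29 with a pseudocount of 0.1, and it was 6.20 without WT mouse 2. It is therefore no measure of a fold.

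The share of Eno1b in the sum of both genes was 37.2%, 36.7%, 37.0% and 36.6% in the 4 hSKP2-KI mice, a mean of 36.9% ± 0.30 (SD), while their summed TPM ranged from 169 to 229. In WT the share was 0%, 17.5%, 0% and 0.0233%. The hSKP2-KI mice thus had nearly 1 share and WT mouse 2 lay about midway between them and the other WT mice. The exact permutation p was 0.0286, and 0.0667 over the 7 shares.

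Summed, Eno1 and Eno1b gave 219, 229, 187 and 169 TPM in hSKP2-KI, 201 ± 28 (SD, n = 4), and 180, 189, 183 and 211 TPM in WT, 191 ± 14. The WT range lay within that of hSKP2-KI. The log2 difference of the sum was 0.07, with a limma interval from -0.16 to 0.30 and an exact permutation p of 0.629, and it was -0.20 after median-ratio scaling. The opposite moves of the separate genes were thus not matched by a detectable difference in their total.

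**Figure D3:**
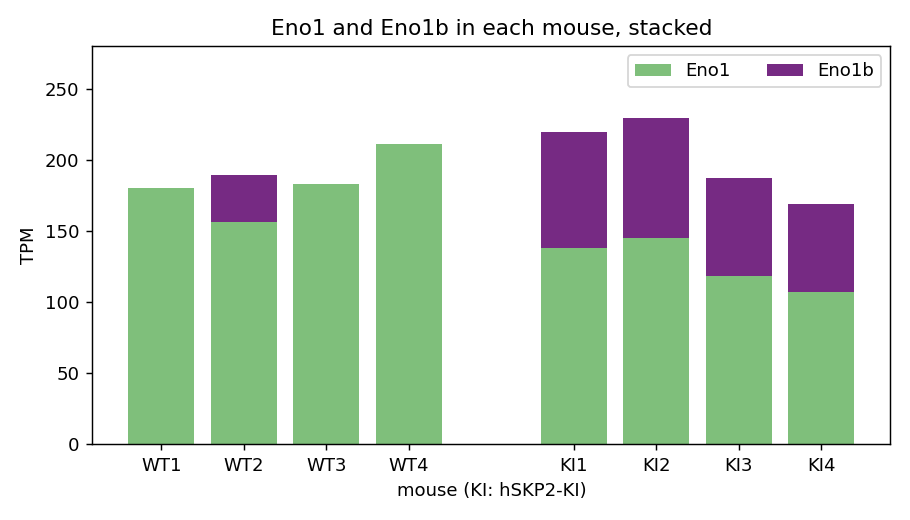
Stacked TPM of Eno1 (green) and Eno1b (purple) in each of the 8 mice (y axis, TPM from 0). Eno1b adds 61.7 to 84.1 TPM in the hSKP2-KI mice and 33.0 TPM in WT mouse 2, is at or near 0 in the other WT mice, and the bar heights of the genotypes overlap.

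WT mouse 2 was not marked as a knock-in library by Skp2 or Pbsn, with the lowest Skp2 TPM of all mice (1.05) and the highest Pbsn TPM (9232). It had the highest value in WT for 5 of the 10 members and for 45.0% of the 4272 genes called higher. Its Hba-a1 TPM, a haemoglobin gene of red cells, was 1408 where the other WT mice had 383 to 501 and hSKP2-KI had 1157 to 1671. Its skeletal muscle gene Ckm was at 34.0 TPM, with hSKP2-KI mouse 4 at 47.1 and the other 6 mice at 5.24 to 12.9. The part of blood or muscle in the Eno1b value of WT mouse 2 was not tested, and without WT mouse 2 and hSKP2-KI mouse 4 the same counts of 6 members higher and 1 lower were called.

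The genes whose log2(TPM + 1) followed Eno1b most closely over the 8 mice also placed WT mouse 2 apart from the other WT mice. They were Ube3b (Pearson r = 0.992), Ciapin1 (r = 0.986), Ints3 (r = 0.985), Lman2 (r = 0.983) and Srxn1 (r = 0.981), on 5 chromosomes other than that of Eno1b. Ciapin1 TPM, for example, was 12.4 to 14.7 in hSKP2-KI, 11.2 in WT mouse 2 and 6.97 to 7.26 in the other WT mice. Those closest to Eno1 were Mri1 (r = 0.976), Scap (r = 0.945), Tekt5 (r = 0.927), Fam132a (r = 0.921) and Tmem54 (r = 0.918). Each of these 5 had a negative log2 difference, from -0.32 for Scap to -2.06 for Fam132a. Fam132a and Tmem54 lie on chromosome 4, as Eno1 does, and Mri1, Scap and Tekt5 on chromosomes 8, 9 and 16. Whether location bears on these correlations was not tested. The 8 points of each correlation share libraries and genotype, and the genes were picked as the highest of 13080.

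Other near copies of the members held little signal. The aldolase retrogenes Aldoart1 and Aldoart2 were listed at 0 in all 8 libraries, and Gapdh-ps15 lay between 0.0679 and 0.626 TPM. Of the enolase genes for other tissues, Eno2, the neuronal form, rose from 1.47 ± 0.56 to 3.85 ± 0.96 TPM (SD, n = 4), a log2 difference of 0.98 (limma adjusted p = 0.00566), and 0.80 (limma adjusted p = 0.0234) after median-ratio scaling. Eno3, the muscle form, was at 11.9 ± 2.2 TPM in WT and 15.7 ± 2.6 TPM in hSKP2-KI (limma adjusted p = 0.0653). Eno2 and Eno3 made up 7.68% to 12.1% of all enolase TPM in hSKP2-KI and 5.65% to 7.77% in WT, with overlap (exact permutation p = 0.0857). The value of 12.1% belonged to hSKP2-KI mouse 4, whose skeletal muscle genes were high.

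**Figure D4:**
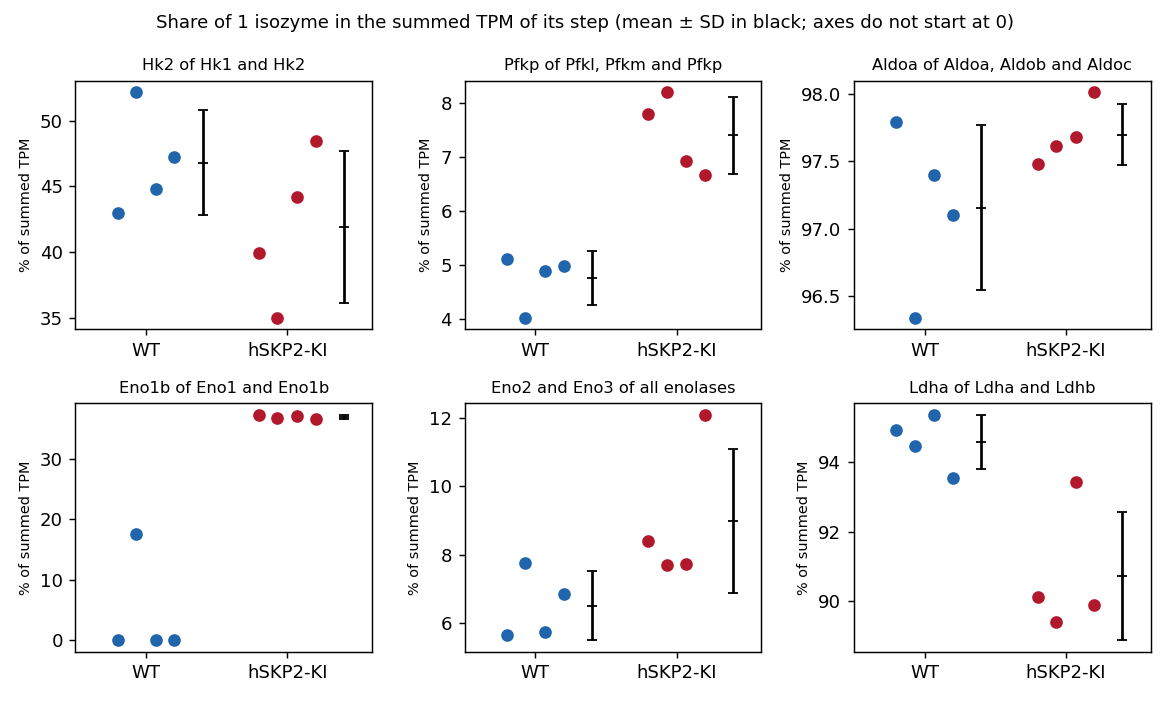
Share of 1 isozyme in the summed TPM of its step (y axes, percent, not all from 0) in the 4 WT (blue) and 4 hSKP2-KI (red) mice, with mean ± SD in black, left out for Eno1b in WT. The shares of Pfkp, Eno1b and Ldha do not overlap between genotypes, and those of Hk2, Aldoa and Eno2 plus Eno3 do.

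Ratios to Gapdh within a library are also free of scaling, and they compare the members with a neighbour in the chain. Pfkp over Gapdh had log2 ratios of -5.28, -5.06, -5.35 and -5.46 in hSKP2-KI and -6.38, -6.12, -6.07 and -5.79 in WT, a difference of 0.80. Pgk1 over Gapdh had log2 ratios of 0.07, 0.01, -0.01 and 0.03 in hSKP2-KI and -0.68, -0.03, -0.37 and -0.05 in WT, a difference of 0.31. These 2 did not overlap, though for Pgk1 the nearest WT mouse lay only just outside the hSKP2-KI range. Both had an exact permutation p of 0.0286, and 0.114 after adjustment over the 8 ratios. The other log2 ratios overlapped, with differences of 0.25 for Aldoa, 0.22 for Ldha, 0.15 for Hk1, -0.04 for Pkm and for the enolase sum, and -0.14 for Hk2. WT mouse 1, with the highest Gapdh value, had the lowest ratio in WT for all 8. Without it the differences were 0.18 for Pgk1, 0.10 for Aldoa, 0.06 for Ldha, 0.04 for Hk1, -0.15 for Pkm, -0.16 for the enolase sum and -0.33 for Hk2.

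The wider list of glucose metabolism held 74 further genes, of which 58 entered the test. On TPM as deposited 20 rose and 0 fell in limma at an adjusted p of 0.05, beside 32.7% of all genes higher and 1.23% lower, and their median log2 difference was 0.22 beside 0.23 for all genes. After median-ratio scaling 6 rose (Eno2, Ldhb, Ldhd, Pdp1, Fbp1 and Pygl) and 1, the glucose transporter Slc2a12, fell, beside 6.92% and 4.25% of all genes in these directions. Without WT mouse 1 the count on TPM as deposited was 13 higher and 0 lower. The median of the list thus lay at that of all genes, and its share called higher after scaling was near the share over all genes. Fbp1 is named after its values were seen. It entered the test only through the hSKP2-KI mice, as its WT values were 0.4 to 1.96 TPM.

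**Figure D5:**
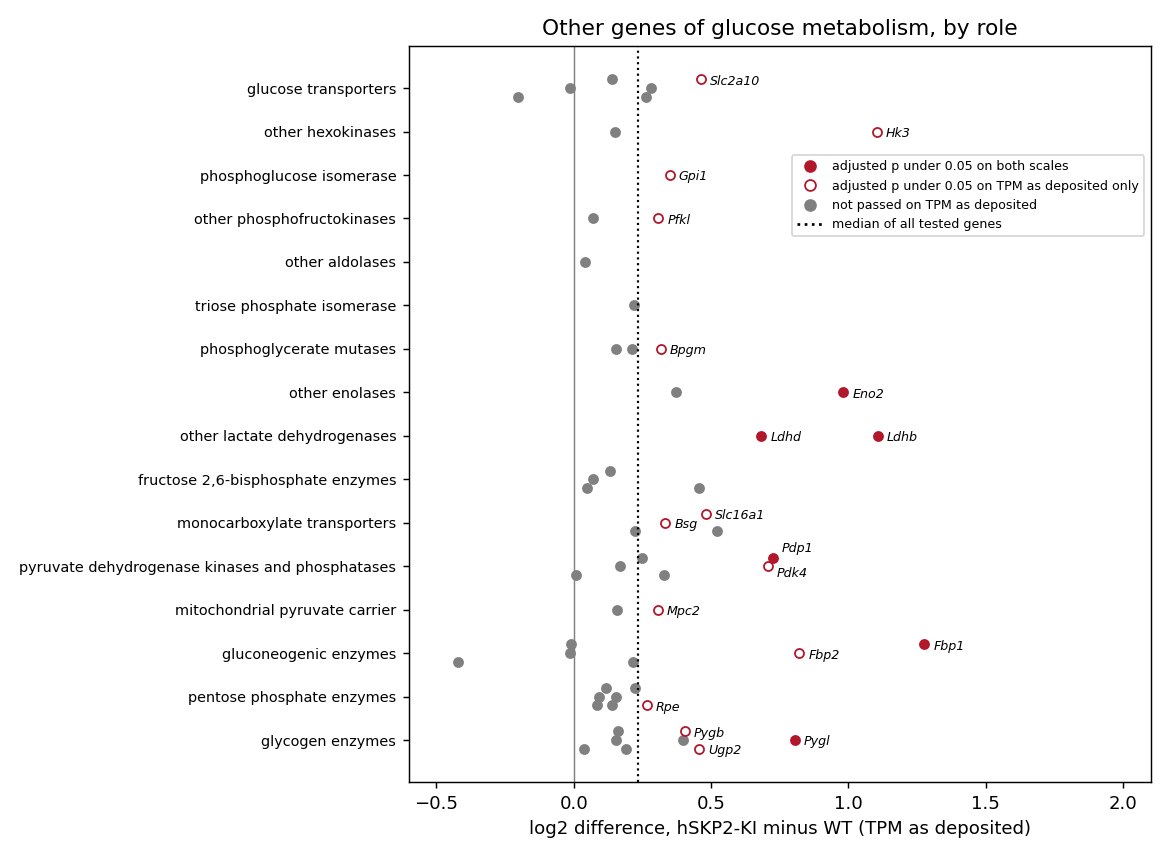
Log2 difference of the tested genes of the wider list, 1 left out, hSKP2-KI minus WT (x axis, log2 units, TPM as deposited), by role, with genes past a limma adjusted p of 0.05 in red (filled where also passed after median-ratio scaling) and the median of all tested genes dotted. The red points are all positive, and 6 are filled.

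Among the remaining enzymes between glucose and pyruvate, Gpi1, the isomerase before phosphofructokinase, rose from 124 ± 13 to 159 ± 17 TPM (SD, log2 difference 0.35, limma adjusted p = 0.0227). Hk3, the hexokinase of leukocytes, rose from 0.672 ± 0.442 to 2.74 ± 1.69 TPM (log2 difference 1.10, limma adjusted p = 0.0129). Hk3 entered the test only through the hSKP2-KI mice, as its WT values were 0.35 to 1.32 TPM. Bpgm, which makes bisphosphoglycerate, rose by 0.32 on the log2 scale (limma adjusted p = 0.0222), and Pfkl, the liver form of phosphofructokinase, by 0.31 (limma adjusted p = 0.0376) with overlap between genotypes. After median-ratio scaling none of these 4 passed, with log2 differences of 0.08 for Gpi1, 0.06 for Bpgm and 0.04 for Pfkl, while that of Hk3 was 0.95 (limma adjusted p = 0.052). Tpi1, the triose isomerase, at 228 ± 20 TPM in WT and 266 ± 25 in hSKP2-KI, did not pass (log2 difference 0.22, limma adjusted p = 0.0825). Aldoc, the aldolase of brain, was at 6.97 and 6.98 TPM in WT and hSKP2-KI. The germ cell gene Pgk2 was listed at 0 in all 8 mice, and Gapdhs and Pklr, the liver and red cell pyruvate kinase, were too low to be tested.

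At the exits of the chain the monocarboxylate transporter Slc16a1 rose from 4.45 ± 0.89 to 6.59 ± 1.08 TPM (log2 difference 0.48, limma adjusted p = 0.0285). Its chaperone Bsg rose from 528 ± 21 to 666 ± 16 TPM (log2 difference 0.33, limma adjusted p = 0.00607), and neither passed after median-ratio scaling. Ldhd, a mitochondrial enzyme for D-lactate, rose from 9.46 ± 0.65 to 15.8 ± 0.99 TPM (log2 difference 0.68, limma adjusted p = 0.00105), and 0.43 after median-ratio scaling (limma adjusted p = 0.0199). Pdp1, the phosphatase that activates pyruvate dehydrogenase, rose by 0.72 on the log2 scale (limma adjusted p = 0.00192), and by 0.51 after median-ratio scaling (limma adjusted p = 0.0082). The pyruvate dehydrogenase kinase gene Pdk4, named after its values were seen, rose by 0.71 with overlap between genotypes (limma adjusted p = 0.041). Pdk4 did not pass after median-ratio scaling (limma adjusted p = 0.177). Mpc2, a subunit of the mitochondrial pyruvate carrier, rose by 0.31 (limma adjusted p = 0.0196), and was at 0.04 after median-ratio scaling (limma adjusted p = 0.799).

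In the side branches the glycogen genes Pygl and Ugp2 rose by 0.80 and 0.46 on the log2 scale (limma adjusted p = 0.00614 and 0.00366), and Pygl but not Ugp2 passed after median-ratio scaling. Fbp2, the muscle fructose bisphosphatase, rose by 0.82 (limma adjusted p = 0.00974), and did not pass after median-ratio scaling (log2 difference 0.64, limma adjusted p = 0.0628). Of 7 pentose phosphate genes 1, Rpe, rose, by 0.27 (limma adjusted p = 0.0341), and it was at 0.01 after median-ratio scaling. Pfkfb2, which sets the level of the activator of phosphofructokinase, was at 21.7 and 23.9 TPM in WT and hSKP2-KI (limma adjusted p = 0.418), and none of the 4 tested genes of its group passed. Slc2a12 was the glucose transporter of highest level, at 44.5 ± 6.2 TPM in WT and 38.9 ± 8.1 in hSKP2-KI. It fell after median-ratio scaling, by 0.47 (limma adjusted p = 0.0432), and did not pass on TPM as deposited (log2 difference -0.20, limma adjusted p = 0.26).

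A list of 14 hypoxia-induced genes that are no glycolysis enzymes was set beside the members. Of the 13 tested, 5 rose on TPM as deposited (Ndrg1, P4ha1, P4ha2, Higd1a and Kdm3a) and 0 fell, near the 32.7% higher and 1.23% lower of all genes, with a median log2 difference of 0.24 beside 0.23 for all genes. After median-ratio scaling 0 rose and 2, Vegfa and Ddit4, fell, beside 6.92% and 4.25% of all genes. The prolyl hydroxylase gene P4ha1, which acts on collagen, rose by 0.60 (limma adjusted p = 0.00724), and Vegfa, a growth factor of blood vessels, was at 46.6 ± 8.2 TPM in WT and 39.0 ± 4.6 in hSKP2-KI.

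On TPM as deposited, several lists of cell type markers moved with genotype beside these results. The summed TPM of 10 fibroblast markers was 874 to 1544 in hSKP2-KI and 474 to 675 in WT, with 9 of the 10 called higher in limma, where 32.7% of all genes were. For 8 smooth muscle markers it was 3068 to 4697 against 2066 to 2601, with all 8 called higher, and for 8 macrophage markers 214 to 436 against 94.8 to 197, with 6 called higher. For 6 epithelial markers it was 1987 to 2275 against 1721 to 1941, with 2 called higher, which is near the share over all genes, and of 6 proliferation genes 2 were tested and 0 called. The 6 ventral prostate secretory genes summed to 321428 to 343712 against 414224 to 463125, with 4 called lower, where 1.23% of all genes were. Called higher were 5 of 8 endothelial, 3 of 5 leukocyte, 3 of 4 tested erythrocyte and 2 of 4 basal epithelial markers. So were 2 of 7 tested skeletal muscle, 1 of 5 Schwann cell and 0 of 6 adipocyte markers. No marker of these lists was at 0 in all 8 mice. hSKP2-KI mouse 2 had the highest fibroblast and macrophage sums and the highest hSKP2-KI value for 7 of the 10 members, as it had for 40.1% of the 4272 genes called higher. The part of cell composition in the members' differences was not tested, and in bulk tissue fewer cells of a type cannot be told apart from less RNA per cell.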

How the data were processed

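The authors sequenced poly-A selected RNA of ventral prostate as 150-base paired reads and mapped it in CLC software. Its version and its rule for reads that fit several genes are not given in the sources used here. The submitters' processing notes name the builds mm10 and GRCm38. The authors deposited 1 table of TPM for 36333 genes in 8 libraries, each summing to 1000000, with 0 columns of other samples. The depth of each library is unknown beyond the study's nominal figure, so no counting intervals were computed.

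Samples were grouped by the genotype in their labels. log2(TPM + 1) of genes with at least 1 TPM in at least 4 libraries entered a limma fit (version 3.58.1, R 4.3.3) with a trend of variance on mean and Benjamini-Hochberg adjustment, at a threshold of 0.05. The procedure was tested on simulated data with independent noise and no shift common to most genes, so that test did not cover the shift seen here. Sums, shares and ratios were compared by two-sided exact permutation tests over the 70 assignments of 4 of 8 mice, whose smallest p is 0.0286. Median-ratio scaling divided each library by the median ratio of its genes to their geometric means. Where nothing else is said, an SD is over 4 mice per genotype. An SE is limma's for 4 mice per genotype, with its variance moderated over all genes tested. The p-values set a difference between the genotypes against the variation between these mice. Python 3.11.15, pandas 2.3.3 and matplotlib 3.10.9 were used.

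The members and lists were chosen with earlier results of these data known. Named were all members, the wider list's genes that passed 0.05 and whose genotypes did not overlap, the most abundant gene of each role without one, the 5 genes most correlated with each of Eno1 and Eno1b, and near copies by name. Near copies by protein identity were not searched, and the plot of the wider list also labels the other genes called. A gene within the rule is not reported here, though the counts include it. Alternatives were a pseudocount of 0.1, no filter, a filter on mean TPM (5 or more), a replicate block, quantile normalization, median-ratio scaling, TPM rescaled after dropping the 20 most abundant genes, leaving out each mouse and, chosen after seeing the data, leaving out the 2 libraries with high skeletal muscle genes. The shared replicate numbers were not used as pairs in the main fit. Same-numbered mice had correlations of their deviations between -0.109 and 0.221, which cannot exclude a pairing. Coordinates and promoters are RefSeq's on GRCm38.p6, matched by Entrez identifier for 9 of the 10 members for promoters.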

Additional observations from a re-analysis of the deposited data

Results flagged for a closer look

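Of 52 groups of 4 mice examined, 6 held a mouse far from the other 3 by Dixon's test at the 95% level, a test that picks about 1 group in 20 by chance. WT mouse 2 had 33.0 TPM of Eno1b where the other WT mice had 0 to 0.0491, and an Eno1b share of 17.5% where they had 0 to 0.0233%. hSKP2-KI mouse 4 had an Eno2 plus Eno3 share of all enolases of 12.1%, where the other hSKP2-KI mice had 7.68% to 8.40%. WT mouse 1 had a log2 ratio of Hk1 over Gapdh of -3.10, where the other WT mice had -2.64 to -2.61. The Pkm share of Pkm and Pklr was 100% in hSKP2-KI mouse 4, with the others at 99.992%, and 99.992% in WT mouse 3, with the others at 100%, where Pklr was at or near 0 TPM throughout.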

How the results depend on the processing

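Of 607 values recomputed for 45 results, 515 were kept, 65 lost their call, 18 changed sign and 9 counts moved by more than 1.5 times. Kept means the same direction and side of the threshold, or for a count a move of at most 1.5 times. Shares and ratios had not passed after adjustment, so they had no call to lose. Scaling mattered most. The members called higher, 6 on TPM as deposited, were 2 after median-ratio scaling, 1 after quantile normalization and 2 without the 20 most abundant genes, and 4 to 6 with 1 mouse left out. The wider list's 20 were 6, 6 and 8 in the same order and 13 to 25 with 1 mouse left out (13 without WT mouse 1), and its 0 called lower became 1 after median-ratio scaling and 1 without the 20 most abundant genes. In that order of the 3 scalings the log2 difference of Gapdh turned to -0.158, -0.137 and -0.137 and that of Pkm to -0.203, -0.153 and -0.182. The difference of Hk1 was -0.004 after median-ratio scaling, and that of the enolase sum was -0.201 after it and -0.180 without the 20 most abundant genes. With 1 mouse left out, Hk2 ran from -0.124 to 0.093, and over Gapdh the log2 ratio differences ran from -0.330 to 0.003 for Hk2, -0.150 to 0.010 for Pkm and -0.160 to 0.065 for the enolase sum. Without the 2 libraries with high muscle genes, Hk2 gave 0.017, Pkm over Gapdh 0.021 and the enolase sum over Gapdh 0.018. The cause of these changes was not tested. With the replicate block the members stayed at 6 higher and 1 lower, the wider list had 24 higher and 0 lower, and the enolase sum had a log2 difference of 0.068 (limma adjusted p = 0.611). Over all genes tested the block gave 4941 called higher and 187 lower, beside 4272 and 161 without it. Whether the numbers pair the mice could not be settled, as 4 of 8 correlated best with their own number. TPM carries no depth, so the precision of low genes such as Pfkp and of listed zeros could not be judged from counts.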
